A study of Mus musculus with 27 samples.

Results

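The sham-operated hearts of the series give the comparison of caPI3Kalpha with wild-type (WT) left ventricles in the absence of pressure load. The name stands for phosphoinositide 3-kinase (PI3K) whose alpha catalytic subunit is held permanently active. They were chosen by their labels alone and gave 13 of the 27 libraries. Messenger RNA was sequenced from 2 caPI3Kalpha sham and 4 WT sham hearts, and small RNA from 3 caPI3Kalpha sham and the same 4 WT sham hearts. All mice were adults of the FVB strain, and the ventricle was taken 7 days after the operation; a sham operation leaves the aorta open, whereas transverse aortic constriction (TAC), done in the other hearts, narrows it. The labels call the genotype a PI3Kalpha mutant and give neither sex nor exact age. In the mouse line known by the name caPI3Kalpha the transgene is driven by the cardiomyocyte promoter of Myh6 and joins part of the p85 regulatory subunit to the catalytic subunit; the labels state neither. Animal numbers in the titles name the hearts below: caPI3Kalpha sham 5, 8 and 14 (14 for miRNA alone) and WT sham 6, 7, 13 and 15.

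PI3Kalpha is the lipid kinase that insulin and insulin-like growth factor receptors switch on. Its product recruits the kinase Akt, which in turn activates mTOR and protein synthesis, holds the FoxO transcription factors out of the nucleus and promotes glucose uptake. In the heart this pathway is known for physiological growth, the kind seen with exercise, as opposed to the growth with fetal gene expression and fibrosis that follows pressure load.

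In short, the mRNA of the catalytic subunit itself was about 20-fold higher in caPI3Kalpha sham hearts, and it was the one gene of 8987 that passed the test against WT sham hearts. Once WT sham 6 was left out 1824 genes passed (20.3%), and in 98.5% of these WT sham 6 itself lay nearer to the caPI3Kalpha hearts than to the other WT hearts. None of 262 miRNAs passed. Genes in which the groups lay apart by smaller gaps are described below, with their values in the TAC hearts, which had no part in choosing them.

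Mature sequences of the miRNAs discussed are given here because families are defined by the seed, bases 2 to 8 from the 5′ end, shown in capitals; the miRNA results further down refer to them. All come from RefSeq on GRCm38.p6, and all 11 names looked up were matched. The first 3 are made from introns of myosin heavy chain genes, and the first pair differs only outside the seed.
miR-208a-3p: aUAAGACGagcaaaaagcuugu
miR-208b: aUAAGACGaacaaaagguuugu
miR-499: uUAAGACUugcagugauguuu
Abundant or stress-related miRNAs of the heart and its blood are the next set, shown because the results name them as members of those groups.
miR-21: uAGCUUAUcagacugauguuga
miR-30a: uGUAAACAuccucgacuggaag
miR-451: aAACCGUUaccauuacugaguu
The last set holds miRNAs that lay at the edges of the comparison, by smallest p or by groups that did not overlap; no 2 of these share a seed.
miR-324-3p: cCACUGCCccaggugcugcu
miR-130a: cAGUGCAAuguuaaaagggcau
miR-338-5p: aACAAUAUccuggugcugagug
miR-673-5p: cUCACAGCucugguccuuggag
miR-423-5p: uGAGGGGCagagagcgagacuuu

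The mRNA values were RPKM (mapped reads scaled to transcript length and library size), printed to 1 decimal, and their depth is unknown. The 7 miRNA libraries of sham hearts held between 3114229 and 6756683 counted reads. Messenger RNA libraries of the whole series fell into 2 sets by the sign of their score on principal component 1, which explained 52.0% of the variance. The first set held both caPI3Kalpha sham libraries, WT sham 6, WT TAC 1 and both caPI3Kalpha TAC libraries, and the second held WT sham 7, 13 and 15 with WT TAC 17 and 19. The labels do not name these sets; they state that 6 mRNA libraries were pooled per sequencing lane and not which. Spearman's rho across genes was 0.982 to 0.989 between the caPI3Kalpha sham libraries and WT sham 6, and 0.903 to 0.913 between them and the other WT sham libraries. WT sham 7, 13 and 15 had 0.978 to 0.979 among themselves and 0.903 to 0.909 with WT sham 6. Of 7437 genes with a mean of at least 3 RPKM in sham hearts, 30 differed by 1.5-fold or more between caPI3Kalpha sham 5 and WT sham 6, and 138 between caPI3Kalpha sham 8 and WT sham 6. The same count was 155 between caPI3Kalpha sham 5 and 8, and 1690 to 1851 between either of them and WT sham 7, 13 or 15. Genes with fitted changes near that of Pik3ca show the split. Map3k15, which encodes a kinase of the MAP kinase cascade, had 56.7 and 54.9 RPKM in caPI3Kalpha sham 5 and 8, against 55.4 RPKM in WT sham 6 and 0.5, 0.2 and 0.4 RPKM in WT sham 7, 13 and 15. Nkx6-2 and Pdzd9 had the same form, with 16.2 and 11 RPKM in WT sham 6 and at most 0.1 RPKM in the other WT sham hearts. Genotype and set can be told apart only through WT sham 6 and WT TAC 1, so values are also given from a model to which the set was added (with the set term).

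Pik3ca, the gene of the catalytic subunit, was checked first. It had 115.4 and 195.0 RPKM in caPI3Kalpha sham 5 and 8, against 5.3, 8.5, 7.7 and 7.0 RPKM in WT sham 6, 7, 13 and 15. Every caPI3Kalpha value was above every WT value, by 12.9-fold at the nearest pair on the log2(RPKM + 0.5) scale, and WT sham 6 lay with the other WT hearts. The means were 155.2 ± 56.3 RPKM (SD, n = 2) in caPI3Kalpha sham and 7.12 ± 1.36 RPKM (SD, n = 4) in WT sham, and the fitted log2 change was 4.32 (SE 0.24, 95% interval 3.78 to 4.86, limma adjusted p = 1.85e-05). With the set term it was 4.72 (SE 0.20, adjusted p = 6.52e-07). Libraries of the first set alone gave 4.70, with an adjusted p of 0.181 from a fit that has 1 WT sham and 1 WT TAC library. The TAC hearts had 110.5 and 101.3 RPKM with caPI3Kalpha, against 5.6, 8.1 and 8.9 RPKM in WT, a log2 change of 3.75 (SE 0.26), and the difference between the change in TAC hearts and that in sham hearts was -0.57 (SE 0.36, adjusted p = 0.655). RPKM does not separate transcripts of the transgene from those of the mouse gene.

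**Figure D1:**
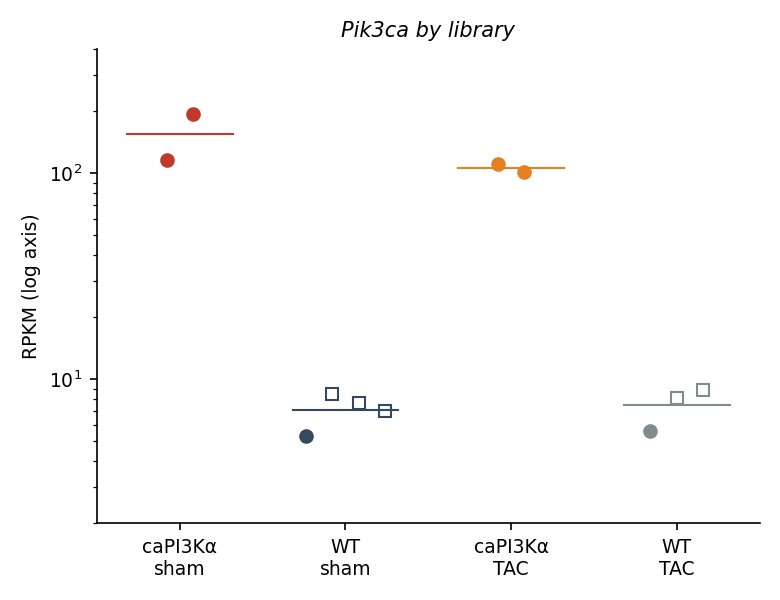
Pik3ca in RPKM on a log axis for each mRNA library, by group (bars are group means; filled circles are libraries of the first set, open squares of the second). The caPI3Kalpha sham values of 115.4 and 195.0 RPKM lie above all 4 WT sham values, and WT sham 6 is at 5.3 RPKM.

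The other measured subunits of the PI3K family did not pass. With Pik3ca they made 9 measured of 11 listed, of which 1 passed, 0.0111% being the share of all genes. Pik3r1, which encodes the p85alpha regulatory subunit, was the most abundant of them and the most uneven: it had 19.7 and 61.5 RPKM in caPI3Kalpha sham 5 and 8, against 22.8, 34.6, 34.7 and 32.5 RPKM in WT sham 6, 7, 13 and 15. The 2 caPI3Kalpha hearts lay on either side of all WT hearts, and the log2 change was 0.18 (SE 0.34, 95% interval -0.57 to 0.93). It was -0.63 without caPI3Kalpha sham 8. RPKM would not separate any p85 sequence of a transgene from transcripts of Pik3r1, and this was not tested. Pik3r2, another regulatory subunit, had 5.3 and 5.8 RPKM in caPI3Kalpha sham hearts, against 5.2 RPKM in WT sham 6 and 3.2, 3.2 and 3.6 RPKM in WT sham 7, 13 and 15. The log2 change of Pik3r2 was 0.52 (SE 0.22) and 0.07 with the set term. Pik3cb, the beta catalytic subunit, differed by -0.10, Pik3r3 by -0.17, Pik3r4, which pairs with the class III enzyme, by 0.20, and the class III enzyme Pik3c3 by -0.12. The class II enzymes Pik3c2a and Pik3c2b differed by -0.43 and 0.19. With the set term the last 6 genes lay between 0.07 and 0.27. Pik3cd and Pik3cg, the leukocyte catalytic subunits, are not among the genes analysed here.

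Downstream of PI3K, 0 of 28 measured Akt and mTOR genes passed. Their median log2 change was 0.13, and -0.01 with the set term, beside -0.02 and 0.02 for all genes. In 2 of the 28 both caPI3Kalpha sham hearts lay above all 4 WT sham hearts and in 3 both lay below; over all genes those shares were 9.42% and 10.1%. Akt1s1, which encodes an mTOR inhibitor that Akt phosphorylates, had the smallest p of the list, with 15.5 and 17.2 RPKM in caPI3Kalpha sham hearts, against 15.4 RPKM in WT sham 6 and 6.6, 4.9 and 6.4 RPKM in the other WT sham hearts. Its log2 change was 1.06 (SE 0.41) and 0.13 with the set term. Sgk1, a kinase related to Akt, had 24.5 and 17.1 RPKM in caPI3Kalpha sham hearts, against 26.7, 31.7, 26.4 and 38.4 RPKM in WT sham 6, 7, 13 and 15. Both caPI3Kalpha values were below all WT values, with a log2 change of -0.56 (SE 0.22) and -0.44 with the set term. In TAC hearts the Sgk1 difference was 0.66. Foxo1, a transcription factor that Akt inhibits, had 4.7 and 5.2 RPKM in caPI3Kalpha sham hearts, against 5.2, 6.7, 6.6 and 6.8 RPKM in WT sham hearts. Rheb, the activator of mTOR, differed by -0.40 (-0.02 with the set term). Akt1 differed by 0.30 and Akt2 by 0.19, both negative with the set term at -0.21 and -0.13.

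Among 16 genes of IGF and insulin signalling 0 passed, and 8 had a positive and 8 a negative log2 change. Igf1, the ligand, had 2.6 and 1.4 RPKM in caPI3Kalpha sham hearts, against 2.7, 4.0, 3.0 and 4.3 RPKM in WT sham hearts, which placed WT sham 6 and caPI3Kalpha sham 5 side by side. The log2 change of Igf1 was -0.70 (SE 0.24) and -0.38 with the set term; in TAC hearts it was -1.68 (adjusted p = 0.00786). Igf1r, the receptor, was level at 2.6 and 2.4 RPKM in caPI3Kalpha sham, against 2.5, 2.4, 2.7 and 2.5 RPKM in WT sham. Igfbp7, a binding protein, had 79.1 and 80.5 RPKM in caPI3Kalpha sham hearts, against 72.7 RPKM in WT sham 6 and 48, 51.6 and 48.3 RPKM in the other WT sham hearts.

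FoxO targets and genes of muscle atrophy, which Akt signalling is known to restrain, gave 0 of 17 passing, a median of -0.04 and 1 gene with both caPI3Kalpha hearts below all WT hearts. Pdk4, which slows glucose oxidation, had 52.1 and 70.0 RPKM in caPI3Kalpha sham hearts, against 63.9, 140.2, 75.3 and 123.0 RPKM in WT sham 6, 7, 13 and 15. The groups overlapped through WT sham 6, and the log2 change was -0.66 (SE 0.31), or -0.38 with the set term. In TAC hearts it had the opposite sign, 1.23 (adjusted p = 0.0477). The muscle ubiquitin ligases Fbxo32 and Trim63 differed by -0.29 (SE 0.22) and 0.07 (SE 0.14), and Sesn1 and Bnip3 by -0.42 and -0.62, with WT sham 6 at the caPI3Kalpha level in both. Of 76 cytosolic ribosomal protein genes 0 passed; 2 lay above and 13 below in both caPI3Kalpha hearts, beside 9.42% and 10.1% of all genes. The list as a whole had 42 positive and 34 negative changes, from -1.36 to 1.39, and a median of 0.06 (-0.05 with the set term). Without WT sham 6, 24 of its genes passed higher and 13 lower. The genes named here, chosen among the smallest p-values of the list, were all on the lower side. Rpl7 had 43.8 and 39.2 RPKM in caPI3Kalpha sham hearts, against 51.6 RPKM in WT sham 6 and 91.8, 91.2 and 90.9 RPKM in the others. The log2 change of Rpl7 was -0.93 (-0.20 with the set term); Rps3a and Rps6 differed by -0.69 and -0.43 (-0.20 and -0.18 with the set term).

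Over all genes, both caPI3Kalpha sham hearts lay above all 4 WT sham hearts in 847 of 8987 genes (9.42%) and below them in 912 (10.1%). A gap of 1.5-fold or more between the groups was found in 1 gene of 7437 with a mean of at least 3 RPKM, 0.0134%, and that gene was Pik3ca. The count of genes with such a gap was 651 without WT sham 6, 43 without caPI3Kalpha sham 5 and 6 without caPI3Kalpha sham 8. At a gap of 1.2-fold there were 23 genes above, Pik3ca among them, and 13 below. The test gave 1193 genes with an unadjusted p under 0.05, of which 687 had a positive change, and the smallest adjusted p after that of Pik3ca was 0.326, so each gene named from here on had an adjusted p of at least 0.326 in sham hearts. When WT sham 6 was left out, 1824 genes (20.3%) passed, 1041 higher (11.6%) and 783 lower (8.71%); in 1797 of them, 98.5%, WT sham 6 lay nearer to the caPI3Kalpha sham mean than to the mean of the other WT sham hearts. Placed on a scale with 0 at the other WT sham hearts and 1 at the caPI3Kalpha sham hearts, WT sham 6 had a median of 0.98 over those genes. With the set term in the model 1 gene passed and 138 had an unadjusted p under 0.05.

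**Figure D2:**
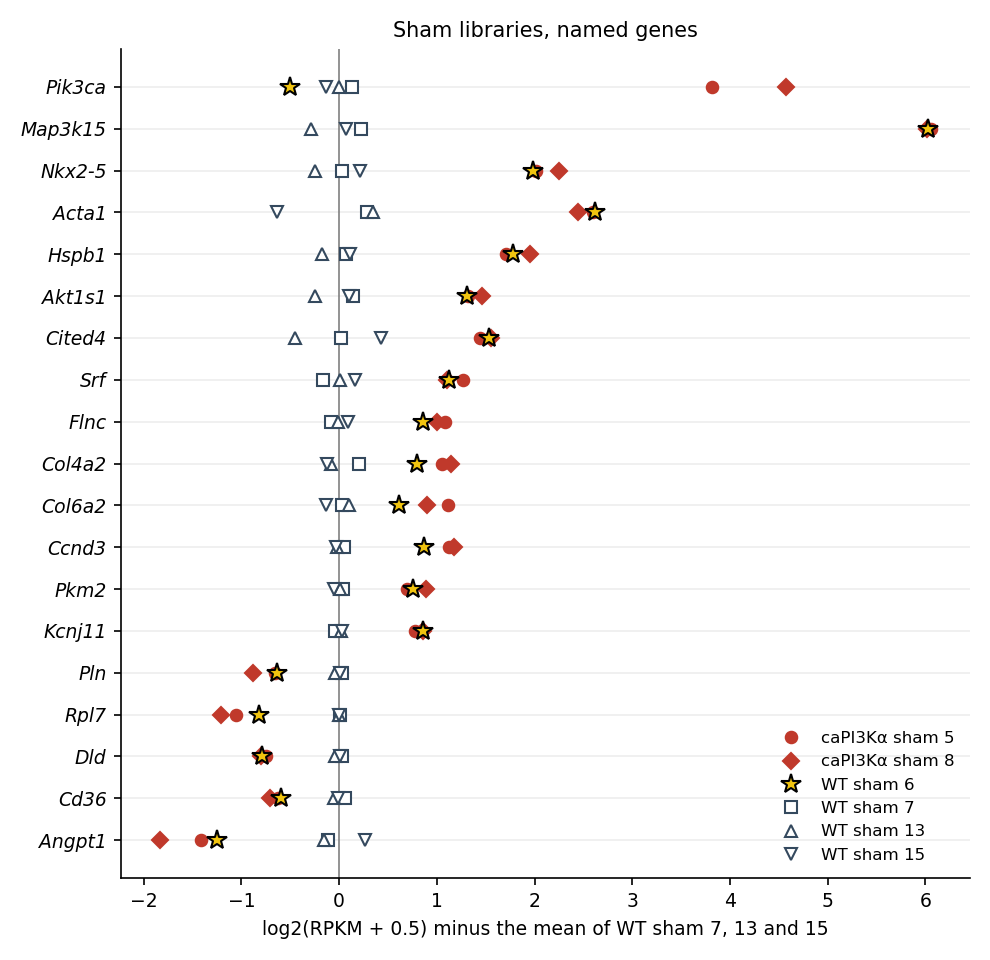
Each row is 1 gene and each symbol 1 sham library, placed by its log2(RPKM + 0.5) minus the mean of WT sham 7, 13 and 15. WT sham 6 (star) lies nearer to the caPI3Kalpha sham libraries than to the other WT libraries in the rows from Map3k15 down, and with the WT libraries for Pik3ca. The rows are a choice of the named genes. They leave out others, such as Tbc1d4, in which WT sham 6 was near the other WT hearts.

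The genes with the widest gaps after Pik3ca were picked after their values were seen, since none reached 1.5-fold, and they are a description in the sham hearts. Above WT these were Col15a1, a basement membrane collagen, Sema3f, a secreted guidance protein of the semaphorin family, Mfap5, a microfibril protein of elastic fibres, Mical2, Gipc1, Obfc2b, Dll4, Ckb, Ptgfrn and Mif. Sema3f had 4.7 and 5.3 RPKM in caPI3Kalpha sham hearts, against 3.4, 1.6, 2.2 and 1.7 RPKM in WT sham 6, 7, 13 and 15, a gap of 1.33-fold. WT sham 6 again stood highest of the WT hearts, and the log2 change of 1.06 was 0.40 with the set term. Mfap5 had 5.5 and 6.0 RPKM in caPI3Kalpha sham hearts, against 4.0, 3.5, 3.3 and 3.0 RPKM in WT sham hearts. Here the 4 WT hearts lay close together and the change moved little with the set term, from a log2 value of 0.67 (SE 0.14) without it to 0.59 (SE 0.15) with it. Dll4, the Notch ligand of endothelial cells, had 4.8 and 6.5 RPKM in caPI3Kalpha sham hearts, against 3.7, 2.9, 2.8 and 2.5 RPKM in WT sham hearts, a log2 change of 0.82 (SE 0.20; 0.55 with the set term). Ckb, the brain-type creatine kinase, had 13.4 and 17.2 RPKM in caPI3Kalpha sham hearts, against 10.6, 8.5, 7.4 and 5.9 RPKM in WT sham hearts.

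Below WT, the widest gap was that of Tbc1d4, which encodes AS160, a substrate of Akt that holds back the movement of glucose transporters to the cell surface. It had 10.5 and 10.4 RPKM in caPI3Kalpha sham hearts, against 14.1, 14.7, 15.0 and 15.9 RPKM in WT sham 6, 7, 13 and 15. All 4 WT hearts were above both caPI3Kalpha hearts by 1.33-fold or more, and WT sham 6 was near the other WT hearts. The log2 change was -0.49 (SE 0.11, 95% interval -0.74 to -0.25), and -0.41 with the set term. Sat1, which starts the breakdown of polyamines, had 6.1 and 4.9 RPKM in caPI3Kalpha sham hearts, against 8.1, 8.6, 11.7 and 12.3 RPKM in WT sham hearts. Penk, which encodes proenkephalin, had 5.8 and 4.4 RPKM in caPI3Kalpha sham hearts, against 7.7, 9.1, 8.6 and 11.7 RPKM in WT sham hearts. Gbp10, an interferon-induced guanylate-binding protein, had 9.2 and 5.2 RPKM in caPI3Kalpha sham hearts, against 12.4, 12.4, 15.7 and 11.7 RPKM in WT sham hearts; members of this family are close copies, so reads may have been split among them. Xrcc5, a DNA repair protein, and Tmx1, a thioredoxin of the endoplasmic reticulum, differed by -0.53 and -0.93 (-0.27 and -0.41 with the set term). Xrcc5 had 3.1 and 3.0 RPKM in caPI3Kalpha sham hearts, against 4.0, 4.0, 4.8 and 6.0 RPKM in WT sham hearts. Tmx1 had 13.4 and 13.9 RPKM in caPI3Kalpha sham hearts, against 17.1, 31.2, 26.0 and 34.8 RPKM in WT sham hearts.

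The TAC hearts, whose mRNA libraries carry other animal numbers, gave the same measure for these genes. There 586 of 8987 genes (6.52%) passed between caPI3Kalpha TAC and WT TAC, 67 higher (0.746%) and 519 lower (5.78%), with a median log2 change of -0.18 over all genes tested. Of the 10 genes above WT in sham hearts, 7 had a positive log2 change in TAC hearts, 0 passed in that direction and 1 passed in the other. That gene was Mfap5, with 10.7 and 13.0 RPKM in caPI3Kalpha TAC hearts, against 21.1, 24.5 and 19.9 RPKM in WT TAC hearts (log2 change -0.86, adjusted p = 0.0174). With the set term the TAC changes of Sema3f, Mical2, Gipc1, Obfc2b and Dll4 lay between 0.01 and 0.09. Ckb was at 0.33 and Mif, positive without the term, at -0.46. Of the 10 genes below WT in sham hearts, 8 had a negative change in TAC hearts and 2 passed. By the median, negative changes were also the more common over all genes. With the set term Xrcc5 turned from -0.01 to 0.22 and the others of the 8 stayed negative. Both caPI3Kalpha TAC libraries are of the first set, so these signs are not independent of the sets. Tbc1d4 had 7.4 and 7.9 RPKM in caPI3Kalpha TAC hearts, against 10.2, 10.8 and 11.5 RPKM in WT TAC hearts, and again the groups did not overlap. Its log2 change in TAC hearts was -0.47 (SE 0.12, limma adjusted p = 0.0396), and -0.40 (adjusted p = 0.029) with the set term; the difference from the sham change was 0.02 (SE 0.16). In the first set alone, with 1 WT TAC library, the Tbc1d4 change in TAC hearts was -0.39 and did not pass. Gbp10 had 4.7 and 3.9 RPKM in caPI3Kalpha TAC hearts, against 6.6, 14.2 and 18.7 RPKM in WT TAC hearts, a log2 change of -1.40 (adjusted p = 0.0445; 0.0828 with the set term), and WT TAC 1 of the first set was the lowest WT heart.

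**Figure D3:**
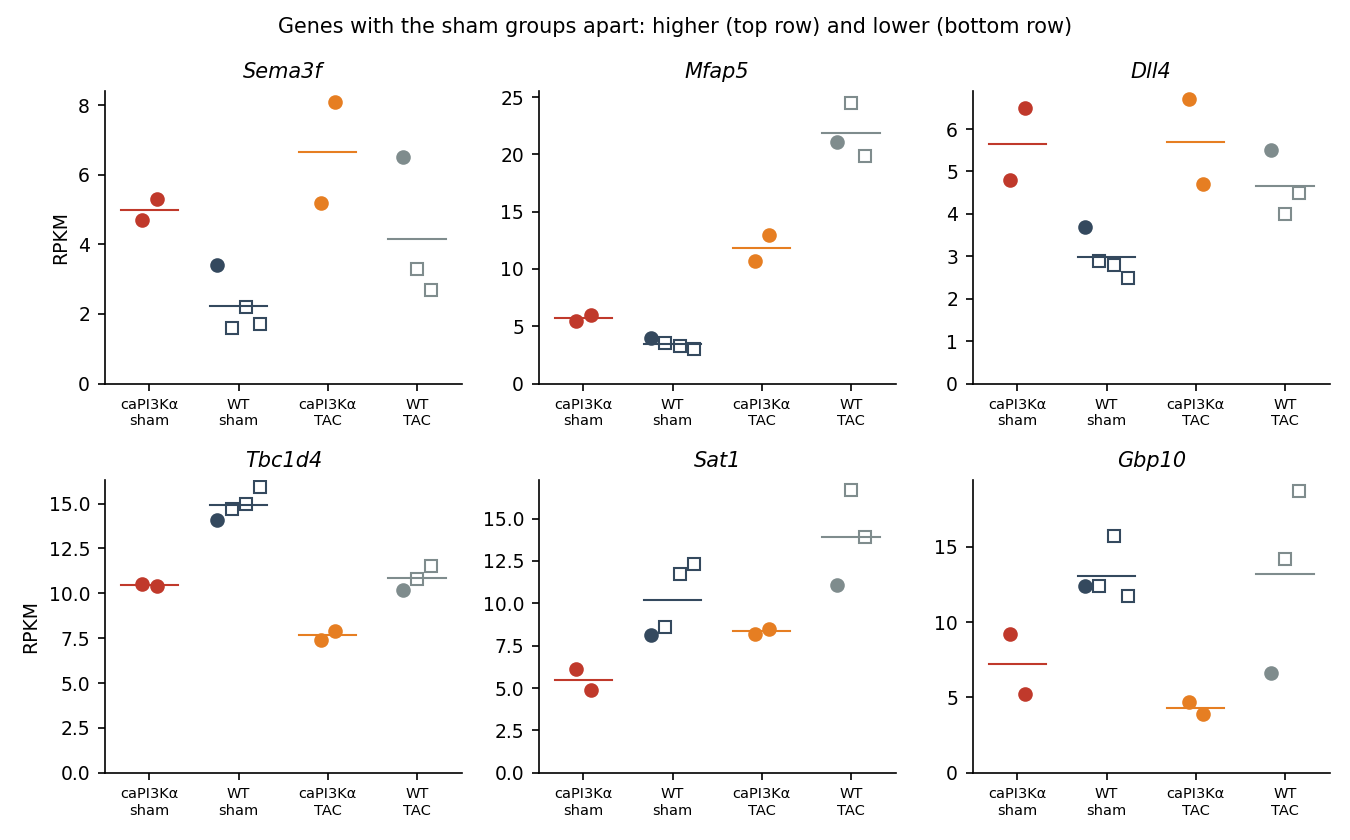
RPKM by library for 3 genes above and 3 genes below WT in sham hearts, with the TAC hearts beside them (bars are group means; filled circles are libraries of the first set, open squares of the second). For Tbc1d4 the caPI3Kalpha values of 10.5 and 10.4 RPKM in sham and 7.4 and 7.9 RPKM in TAC hearts lie below every WT value of the same operation, while Mfap5 is above WT in sham and below WT in TAC hearts.

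Markers of a stressed heart gave 0 of 12 passing, with 11 positive changes, beside 4282 positive of 8987 over all genes. In both caPI3Kalpha hearts 2 lay above all WT hearts and 0 below, beside 9.42% and 10.1% of all genes. The median log2 change of the list was 0.34, 0.20 with the set term and 0.04 in the first set alone. Acta1, the skeletal alpha-actin gene of the fetal heart, had 448.3 and 403.8 RPKM in caPI3Kalpha sham hearts, against 455.2 RPKM in WT sham 6 and 89.9, 93.7 and 47.4 RPKM in WT sham 7, 13 and 15. WT sham 6 was thus the highest of all sham hearts, and the log2 change of 1.87 (SE 0.63) was 0.76 (SE 0.53) with the set term and -0.10 in the first set alone. Nppa, which encodes atrial natriuretic peptide, had 150.9 and 85.5 RPKM in caPI3Kalpha sham hearts, against 117.3, 55.5, 75.0 and 68.9 RPKM in WT sham hearts, a log2 change of 0.57 (SE 0.34) that was -0.03 with the set term. Nppb, the B-type peptide, had 224.1 and 75.7 RPKM in caPI3Kalpha sham hearts, against 121.1, 45.9, 68.0 and 108.2 RPKM in WT sham hearts, and overlapped. Myh7, the slow myosin heavy chain, differed by 0.30 (-0.09 with the set term), and Flnc, a filamin of the Z-disc, by 0.83 (0.25 with the set term).

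Of 17 genes of contraction and calcium handling 0 passed; 5 lay below in both caPI3Kalpha hearts and 0 above, beside 10.1% and 9.42% of all genes. Atp2a2, which pumps calcium back into the sarcoplasmic reticulum, had 2386.7 and 2233.4 RPKM in caPI3Kalpha sham hearts, against 2667.0, 2950.5, 2888.5 and 3108.6 RPKM in WT sham hearts. These groups did not overlap, and the log2 change was -0.33 (SE 0.10), -0.18 with the set term and -0.29 in TAC hearts (adjusted p = 0.0884). Pln, which inhibits that pump, had 1535.6 and 1311.5 RPKM in caPI3Kalpha sham hearts, against 1560.9 RPKM in WT sham 6 and 2480.5, 2362.5 and 2432.7 RPKM in the other WT sham hearts. Myl2, the ventricular light chain, differed by -0.44 (-0.16 with the set term). Myh6, the fast myosin heavy chain and the source of the promoter used for such transgenes, had 3796.2 and 3032.4 RPKM in caPI3Kalpha sham hearts, against 3856.4, 3264.8, 3296.0 and 3686.3 RPKM in WT sham hearts; its log2 change of -0.05 was 0.05 after quantile normalization.

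Of 15 potassium channel genes 0 passed, with 0 above and 1 below in both caPI3Kalpha hearts; that 1 was Kcnip2, the subunit of the transient outward current, with 59.9 and 60 RPKM in caPI3Kalpha sham hearts, against 67.1, 71.3, 78.7 and 68.9 RPKM in WT sham hearts. Its log2 change was -0.25 (SE 0.11; -0.17 with the set term) in sham hearts and -0.32 (adjusted p = 0.09) in TAC hearts. Kcnd2, which carries the same current, differed by -0.29 (SE 0.20). Kcnj11, a pore subunit of the ATP-sensitive channel, had 34.7 and 36.6 RPKM in caPI3Kalpha sham hearts, against 36.7 RPKM in WT sham 6 and 19.4 to 20.4 RPKM in the others. Among 10 sodium, calcium and pacemaker channel genes and connexins 0 passed, with 3 above and 1 below, and their median was 0.31 (0.07 with the set term). For both lists of channels the shares over all genes were 9.42% above and 10.1% below.

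Median changes had opposite signs for fatty acid genes and glycolytic genes without the set term, and no gene of energy metabolism passed. Fatty acid uptake and oxidation had 0 of 29 passing, 0 above and 9 below in both caPI3Kalpha hearts (9.42% and 10.1% over all genes), and a median log2 change of -0.14 that was -0.04 with the set term. Lpl, the lipase that frees fatty acids at the vessel wall, had 678.0 and 581.8 RPKM in caPI3Kalpha sham hearts, against 774.2, 962.9, 1003.9 and 1121.1 RPKM in WT sham hearts. The groups did not overlap, with WT sham 6 lowest of the WT hearts, and the log2 change was -0.61 (SE 0.17), -0.26 with the set term and -0.50 in TAC hearts (adjusted p = 0.0975). Cd36, the fatty acid transporter, differed by -0.52 (-0.04 with the set term). Glucose uptake and glycolysis had 0 of 24 passing, 3 above and 2 below, and a median of 0.21 that was -0.01 with the set term. Pkm2, the symbol given for pyruvate kinase, had 287.1 and 327.9 RPKM in caPI3Kalpha sham hearts, against 298.1 RPKM in WT sham 6 and 182.2, 177.8 and 170.6 RPKM in the others, and Pfkl, liver-type phosphofructokinase, differed by 0.71 (0.18 with the set term). The citric acid cycle had 0 of 18 passing, 0 above and 7 below (median -0.18, or -0.03 with the set term). Dld, a shared subunit of the 2-oxoacid dehydrogenases, overlapped through WT sham 6, with 119.9 and 116.3 RPKM in caPI3Kalpha sham hearts, against 117.0 RPKM in WT sham 6 and 206.4, 196.7 and 203.5 RPKM in the others. The respiratory chain had 0 of 75 passing, 0 above and 14 below, with a median of -0.01. Over all genes 9.42% lay above and 10.1% below. Ppargc1a, the coactivator that drives mitochondrial genes, had 14.8 and 11.9 RPKM in caPI3Kalpha sham hearts, against 15.0, 20.5, 18.6 and 19.3 RPKM in WT sham hearts, a log2 change of -0.44 (SE 0.15; -0.34 with the set term) in sham and -0.53 (adjusted p = 0.0597) in TAC hearts.

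**Figure D4:**
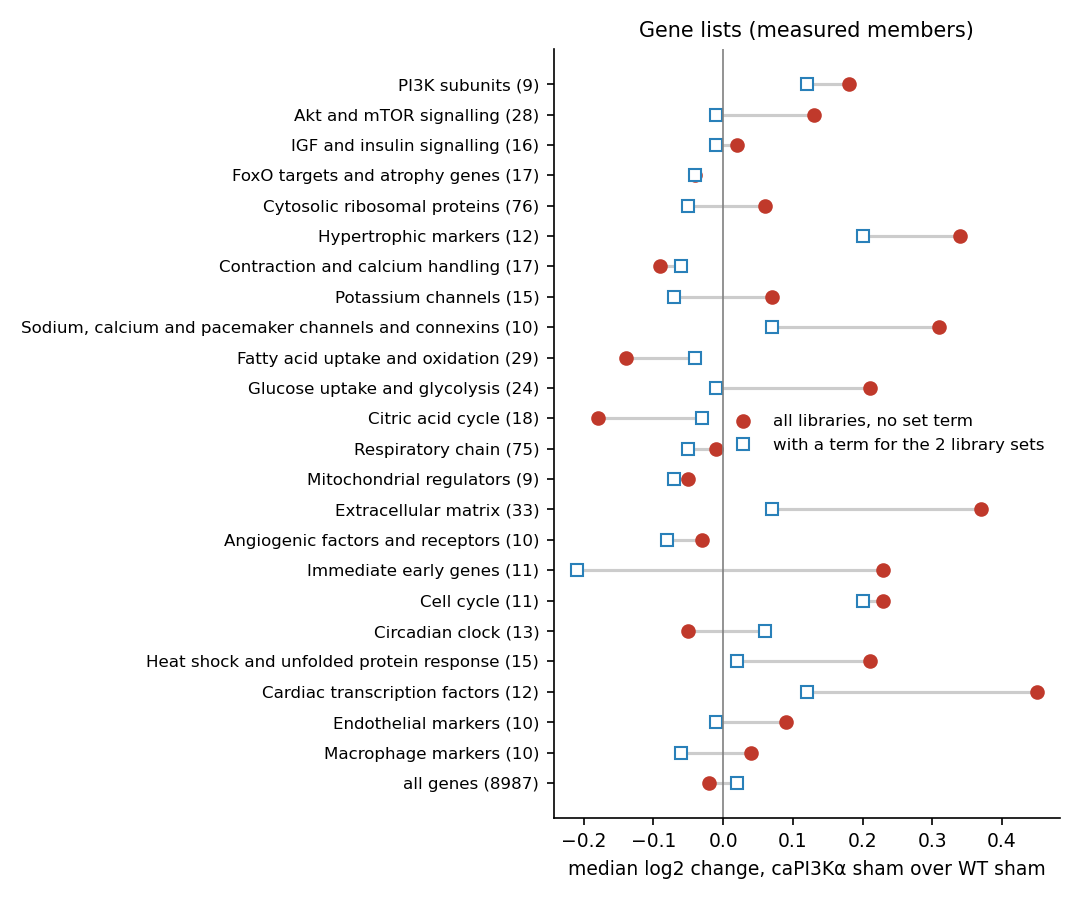
Median log2 change (caPI3Kalpha sham over WT sham) of each gene list with 9 or more measured members, without (red circles) and with (blue squares) a term for the library sets. The medians of extracellular matrix genes and of cardiac transcription factors are 0.37 and 0.45 without the term, and 0.07 and 0.12 with it.

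Of 33 extracellular matrix genes 0 passed; 13 were higher in both caPI3Kalpha hearts than in all WT hearts and 1 was lower, beside 9.42% and 10.1% of all genes. The median was 0.37, 0.07 with the set term and 0.28 after quantile normalization. Col6a2 and Col4a2, chains of collagen VI and of basement membrane collagen, differed by 0.85 and 0.90, and by 0.37 and 0.22 with the set term. Col4a2 had 46.6 and 49.9 RPKM in caPI3Kalpha sham hearts, against 39.1 RPKM in WT sham 6 and 25.7, 20.9 and 20.4 RPKM in the others. Loxl2, a collagen cross-linking enzyme, had 3.7 and 3.3 RPKM in caPI3Kalpha sham hearts, against 2.7, 2.0, 2.3 and 1.6 RPKM in WT sham hearts. Col1a1, a chain of type I collagen, had 19.5 and 14.8 RPKM in caPI3Kalpha sham hearts, against 15.5 RPKM in WT sham 6 and 6.8, 5.8 and 4.9 RPKM in the others, and its log2 change of 1.14 was -0.04 with the set term. Postn, which encodes periostin of activated fibroblasts, had 13.5 and 14.2 RPKM in caPI3Kalpha sham hearts, against 11.1, 11.8, 12.1 and 8.4 RPKM in WT sham hearts, a log2 change of 0.35 (SE 0.17; 0.46 with the set term). Unlike the sham change, that of Postn in TAC hearts was -2.55 (adjusted p = 8.82e-05), and the difference between them was -2.91 (SE 0.25, adjusted p = 0.00105).

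Cardiac transcription factors had 0 of 12 passing, 3 above and 0 below, beside 9.42% and 10.1% of all genes. Their median was 0.45 (0.12 with the set term). Nkx2-5, a factor of cardiac development, had 24.9 and 29.4 RPKM in caPI3Kalpha sham hearts, against 24.4 RPKM in WT sham 6 and 5.9, 4.8 and 6.8 RPKM in the others, a log2 change of 1.64 (SE 0.62) that was 0.19 (SE 0.16) with the set term. Cebpb and Cited4, a pair known from work on exercised hearts as a repressor and a driver of cardiomyocyte growth, had WT sham 6 within or beside the caPI3Kalpha values: Cited4 had 6.2 and 6.7 RPKM in caPI3Kalpha sham hearts, against 6.6 RPKM in WT sham 6 and 2.0, 1.3 and 2.8 RPKM in the others. Cebpb had 8.1 and 9.5 RPKM in caPI3Kalpha sham hearts, against 9.3 RPKM in WT sham 6 and 2.2, 5.5 and 2.3 RPKM in the others. Srf, the serum response factor, differed by 0.90 (0.14 with the set term). Heat shock and unfolded protein genes had 0 of 15 passing and 3 below; Hspb1, a small heat shock protein, differed by 1.38 (0.12 with the set term), and Hspa1a had 1.1 and 7.6 RPKM in caPI3Kalpha sham hearts, against 1.5 RPKM in WT sham 6 and 0.2, 0.4 and 0.4 RPKM in the others, a change carried by caPI3Kalpha sham 8.

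Cell cycle genes had 0 of 11 passing, 3 above and 1 below, beside 9.42% and 10.1% of all genes. Their median of 0.23 was 0.20 with the set term and 0.00 after quantile normalization. Ccnd3, a cyclin of the early cell cycle, had 17.6 and 18.2 RPKM in caPI3Kalpha sham hearts, against 14.6 RPKM in WT sham 6 and 8.1, 7.7 and 7.6 RPKM in the others (log2 change 0.93, or 0.34 with the set term). Cdkn1c, a cell cycle inhibitor, had 4.0 and 4.1 RPKM in caPI3Kalpha sham hearts, against 5.1, 5.6, 7.0 and 7.4 RPKM in WT sham hearts (log2 change -0.56, or -0.54 with the set term); in TAC hearts its change was 0.62. Angiogenic factors had 0 of 10 passing. Angpt1, a vessel-stabilising ligand, had 3.8 and 2.7 RPKM in caPI3Kalpha sham hearts, against 4.3 RPKM in WT sham 6 and 10.1, 9.8 and 13.2 RPKM in the others, a log2 change of -1.31 (-0.66 with the set term) in sham hearts and -1.41 (adjusted p = 0.0498; 0.0818 with the set term) in TAC hearts. Vegfa had 63.5 and 54.9 RPKM in caPI3Kalpha sham hearts, against 64.7 RPKM in WT sham 6 and 40.7 to 44.7 RPKM in the others.

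Cell type markers were summed to see what the pieces of ventricle held; in such bulk tissue, fewer cells of a type and less RNA per cell cannot be told apart. The 6 cardiomyocyte markers summed to 22557.2 and 20777.3 RPKM in caPI3Kalpha sham hearts, against 21525.4 to 22974.0 RPKM in WT sham hearts. The 10 endothelial markers summed to 256.9 and 262.4 RPKM in caPI3Kalpha sham, against 228.8 to 257.8 RPKM in WT sham, and the 10 macrophage markers to 169.1 and 108.6 RPKM in caPI3Kalpha sham, against 117.3 to 137.6 RPKM in WT sham. The 8 fibroblast markers summed to 303.9 and 270.1 RPKM in caPI3Kalpha sham hearts, against 287.0 RPKM in WT sham 6 and 381.1 to 401.5 RPKM in the others. By log2 change 6 of them were negative and 2 positive, Col1a1 (1.14, or -0.04 with the set term) and Tcf21. Tcf21, a fibroblast transcription factor, had 4.3 and 4.2 RPKM in caPI3Kalpha sham hearts, against 4.5 RPKM in WT sham 6 and 1.5 to 1.9 RPKM in the others. Dcn, the matrix proteoglycan decorin and the largest part of that sum, differed by -0.47 (-0.09 with the set term). The macrophage markers had 6 positive and 4 negative changes and a median of 0.04, from -0.37 to the 0.87 of C1qa (0.03 with the set term). Of these lists 0 members passed. Atrial markers were at or near 0 in most hearts, summing to 1.6 and 6.1 RPKM in caPI3Kalpha sham, against 0.7, 0.4, 0.8 and 12 RPKM in WT sham 6, 7, 13 and 15, and Myl7 was at 0 in WT sham 6, 7 and 13. Of the other lists, 0 passed of 11 immediate early genes, 13 clock genes, 9 mitochondrial regulators, 3 smooth muscle, 2 adipocyte and 4 sex-linked genes and 3 long noncoding or mitochondrial transcripts. Red cell markers varied from heart to heart in both groups: Hba-a1, an alpha-globin, had 4.9 and 104.9 RPKM in caPI3Kalpha sham hearts, against 82.6, 14.6, 80.2 and 6.0 RPKM in WT sham hearts. No mesothelial or Schwann cell marker is among the genes analysed here. The part of these markers in the gene differences above was not tested.

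Among miRNAs none passed: 0 of 262 tested (0%), with 4 at an unadjusted p under 0.05, and the smallest adjusted p was 0.995 (edgeR). DESeq2 called 0 as well, with 4 at an unadjusted p under 0.05. The 49 miRNAs with a mean of at least 1000 CPM (reads scaled to a common, TMM-adjusted library size) held 97.8% of the reads of the sham libraries, and all 49 had a log2 change between -0.29 and 0.38, with a median SE of 0.22. All 3 caPI3Kalpha sham libraries lay above all 4 WT sham libraries in 2 miRNAs (0.763%) and below them in 1 (0.382%). These libraries also form 2 sets, by the form of the column name: the first holds caPI3Kalpha sham 5 and 8 with WT sham 6 and 7, and the second caPI3Kalpha sham 14 with WT sham 13 and 15, so both sets hold both genotypes.

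The 7 tested muscle miRNAs had log2 changes from -0.05 to 0.13. miR-133a, among the most abundant miRNAs of muscle, had 91562.3, 93803.0 and 95191.1 CPM in caPI3Kalpha sham 5, 8 and 14, against 92835.9, 90390.6, 78821.6 and 99198.1 CPM in WT sham 6, 7, 13 and 15. The WT range enclosed all 3 caPI3Kalpha values, and the log2 change was 0.05 (SE 0.13). miR-1, which shares its transcripts, differed by -0.05 (SE 0.23). Of the miRNAs made from myosin introns, with the seeds printed above, miR-208a-3p had 1324.1, 1151.4 and 1062.3 CPM in caPI3Kalpha sham, against 1094.2, 1261.6, 866.8 and 1160.9 CPM in WT sham (log2 change 0.11, SE 0.20). Its seed partner miR-208b, made from Myh7, had 484.1, 693.9 and 192.8 CPM in caPI3Kalpha sham, against 523.4, 459.4, 372.5 and 314.2 CPM in WT sham, so that the caPI3Kalpha hearts held both the highest and the lowest values (log2 change 0.13, SE 0.42). By name set the miR-208b change was 0.21 in the first and -0.89 in the second. miR-499 differed by -0.03 (SE 0.25).

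Of miRNAs tied to heart stress, miR-21 had 5734.7, 5529.1 and 3731.5 CPM in caPI3Kalpha sham hearts, against 5213.2, 4406.4, 3894.7 and 3446.6 CPM in WT sham hearts. The groups overlapped, with a log2 change of 0.24 (SE 0.26; 0.12 with a term for the name set). In TAC hearts, where 34 of 262 miRNAs passed (13%), the means of miR-21 were 5170.7 ± 1382.5 CPM with caPI3Kalpha (SD, n = 4) and 14329.8 ± 4048.6 CPM in WT (SD, n = 5), and the log2 change was -1.47 (edgeR adjusted p = 0.00302). The change in TAC hearts minus that in sham hearts was -1.71 (SE 0.34, edgeR adjusted p = 0.0216). Of 19 tested miRNAs described to rise in hypertrophy 0 passed in sham hearts, with a median of 0.04, and of 16 described in exercised hearts 0 passed, with a median of 0.03. miR-30a had 63721.9, 66233.0 and 58849.8 CPM in caPI3Kalpha sham hearts, against 60920.6, 55711.9, 53556.2 and 60572.3 CPM in WT sham hearts (log2 change 0.13, SE 0.13). miR-378, made within the Ppargc1b gene, differed by -0.10 (SE 0.25), and the 9 members of the let-7 family by -0.26 to 0.00, with a median of -0.15 that was 0.01 with the set term; let-7a differed by -0.13 (SE 0.31). In the other lists 0 passed too: the medians were 0.11 for 8 miR-29 and miR-30 members, 0.23 for 4 endothelial, -0.14 for 6 leukocyte, -0.06 for 2 smooth muscle, 0.07 for 4 mitochondrial gene regulators and -0.01 for 26 imprinted chromosome 12 miRNAs, beside 0.03 for all 262.

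The 3 miRNAs whose groups did not overlap were scarce or barely apart. miR-130a had 1064.8, 1021.1 and 1020.3 CPM in caPI3Kalpha sham hearts, against 955.8, 975.2, 957.4 and 998.1 CPM in WT sham hearts, a log2 change of 0.09 (SE 0.14). miR-3102 had 15.3, 19.3 and 16 CPM in caPI3Kalpha sham hearts, against 13.0, 13.3, 13.9 and 13.0 CPM in WT sham hearts (log2 change 0.35, SE 0.24). miR-338-5p, made within the Aatk gene, had 2.19, 1.41 and 2.43 CPM in caPI3Kalpha sham hearts, against 3.21, 2.88, 3.38 and 3.33 CPM in WT sham hearts, a log2 change of -0.68 (SE 0.29) that rests on 8 to 12 reads per caPI3Kalpha library and 10 to 18 per WT library. In TAC hearts the miR-338-5p change was -0.04.

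The smallest p-values belonged to scarce miRNAs. miR-324-3p had 2.73, 4.22 and 3.64 CPM in caPI3Kalpha sham hearts, against 1.25, 1.77, 0.676 and 2.77 CPM in WT sham hearts, from 2 to 24 reads per library, with a log2 change of 1.11 (SE 0.38). miR-1983 and miR-1195 differed by 1.02 and 1.25, and each was highest in caPI3Kalpha sham 8: miR-1195 had 18.8, 71.3 and 10.7 CPM in caPI3Kalpha sham 5, 8 and 14, against 29.3, 15.0, 5.75 and 5.27 CPM in WT sham hearts. On the lower side, miR-423-5p had 49.7, 33.6 and 78.0 CPM in caPI3Kalpha sham hearts, against 64.2, 60.2, 151.1 and 89.3 CPM in WT sham hearts; both sets gave the same sign, -0.61 in the first and -0.69 in the second, while the pooled change was -0.76 (SE 0.39). miR-673-5p, miR-184 and miR-187 differed by -0.82, -0.61 and -0.54.

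**Figure D5:**
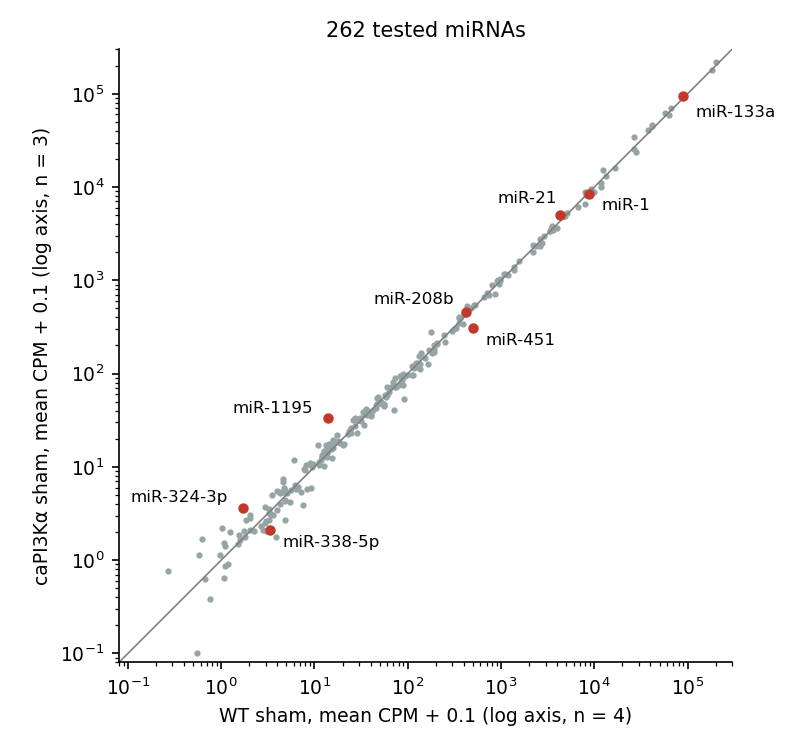
Mean CPM plus 0.1 of the 262 tested miRNAs on log axes, caPI3Kalpha sham (n = 3) against WT sham (n = 4); the line marks equal means and named miRNAs are red. Abundant miRNAs such as miR-133a lie on the line, and points off it include miR-324-3p and miR-338-5p, which had few reads, and the red cell miRNA miR-451.

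In the 6 sham hearts with both assays, the red cell miRNA miR-451 had 63.4 and 677.4 CPM in caPI3Kalpha sham 5 and 8, the hearts with 4.9 and 104.9 RPKM of Hba-a1. In WT sham 6, 7, 13 and 15 it had 542.6, 680.6, 677.8 and 105.4 CPM, beside 82.6, 14.6, 80.2 and 6.0 RPKM of Hba-a1. Both measures were low together in caPI3Kalpha sham 5 and WT sham 15 and high together in 3 hearts, while WT sham 7 had low globin mRNA and high miR-451; it is also the heart whose mRNA library is in the second mRNA set and whose miRNA library is in the first name set. miR-451 differed between genotypes by -0.71 (SE 0.95).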

How the data were processed

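Left ventricular mRNA and miRNA libraries were single-end sequenced, per the labels' protocols. The authors deposited mRNA as RPKM on poly-A selected RNA and miRNA as raw read counts on miRBase v.16 entries, per the file headers. The submitters' processing notes list mm9, Bowtie, Partek 6.5 and CASAVA 1.6 with no roles, and no genome of that build was used. The deposited mRNA table lists genes whose highest RPKM is at least 3, so absent genes were scarce or not analysed here. Of 9251 lines 261 were blank, 1 held no values and 2 repeated a symbol, which left 8987 genes; 8 of 421 miRNAs had no read, and 0 columns matched no sample.

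RPKM was tested with limma 3.58.1 (lmFit, eBayes with trend) on log2(RPKM + 0.5), which understates changes of low genes, in 1 model of the 4 groups; 0 genes had a mean under the filter of 1 RPKM. The deposited counts went into edgeR 4.0.16 (TMM, filterByExpr, quasi-likelihood; R 4.3.3), with DESeq2 1.42.0 as an alternative. The threshold was a two-sided p under 0.05 after Benjamini-Hochberg adjustment. Scripts were tested on simulated data of the size of the sham comparison. Of changes of 2-fold put into those data, 60 of 100 were recovered for mRNA and 15 of 20 for miRNA. Among unchanged features 8 genes and 0 miRNAs were called. A count of 0 passing therefore does not show that no member of a list changed. Libraries of 1 group are different animals by their numbers. Replicate miRNA libraries differed by at least 37.2 chi-square units per degree of freedom, the value of WT sham 6 with 7. None therefore holds a copy of another's reads, but a second library from the same heart would not be detected. The mRNA libraries were not compared in this way. For WT sham 15 mRNA the source name gives another animal number than the title, which was followed. An exact permutation test of 2 against 4 hearts cannot go below 0.133, and of 3 against 4 below 0.0571, so none is reported.

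Named genes are Pik3ca and the PI3K subunits, the 4 smallest p-values of each list, 18 heart genes fixed by name and genes with groups apart by 1.5-fold; named miRNAs are a fixed set, the 6 smallest p-values per direction and those with groups apart. Genes with smaller gaps, Map3k15, Nkx6-2, Pdzd9, Akt1, Akt2 and those of the closing section were chosen after their values were seen. Members, lists (33 of genes, 11 of miRNAs) and tests were chosen with earlier results of these data known. Some genes that the rule names are not reported here. The library sets were also found in the data. CPM precision is limited by counting error for scarce miRNAs, and the depth of the RPKM values is unknown.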

Additional observations from a re-analysis of the deposited data

Results flagged for a closer look

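In the WT sham groups of 4 hearts, values of the named genes and miRNAs were checked for 1 heart far from the others (Dixon's test at the 95% level, by which chance marks about 1 group in 20). It marked 24 of 106 groups, and in all but 1 of these the heart was WT sham 6. This tally cannot be read against that chance rate, since Map3k15, Nkx6-2 and Pdzd9 were chosen to show WT sham 6 apart, other genes were also named with values known, and all groups share the same 4 hearts. WT sham 6 was the highest WT sham heart for Map3k15 (55.4 RPKM), Nkx6-2 (16.2), Pdzd9 (11), Akt1s1 (15.4), Akt1 (35), Igfbp7 (72.7), Acta1 (455.2), Flnc (47.2), Kcnj11 (36.7), Pkm2 (298.1), Pfkl (27.1), Vegfa (64.7), Ccnd3 (14.6), Nkx2-5 (24.4), Hspb1 (111.0), Hspa1a (1.5) and Tcf21 (4.5). It was the lowest for Pik3r3 (2.6 RPKM), Foxo1 (5.2), Rpl7 (51.6), Pln (1560.9), Myl2 (3205.1) and Dld (117.0). In the remaining case WT sham 15 was the lowest WT sham heart, for Obfc2b (9.7 RPKM).

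The effect of caPI3Kalpha differed between TAC and sham hearts, by a test of the difference itself, for 4 named features. Across all features this test, without the set term, called 28 of 8987 genes, 0 higher and 28 lower. It called 2 of 262 miRNAs, 0 higher and 2 lower. With the set term 607 genes were called, 75 higher and 532 lower, so the count of genes depends on the library sets. The log2 change in TAC hearts minus that in sham hearts was -1.52 for Mfap5 (limma adjusted p = 0.0156), -1.63 for Loxl2 (adjusted p = 0.0223), -2.91 for Postn (adjusted p = 0.00105) and -1.71 for miR-21 (edgeR adjusted p = 0.0216). Mfap5 was named for its gap in sham hearts and Loxl2 for a small p there. Their sham changes of 0.67 and 0.61 enter the difference, so it is a description for both and not a separate test. Postn and miR-21 were fixed by name.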

How the results depend on the processing

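The count of 1 mRNA gene past the threshold was the same with pseudocounts of 0.1 and 1, library medians set equal, quantile normalization, sham libraries alone, no filter and the set term. It was 0 in the first set alone, where Pik3ca had a log2 change of 4.70 (adjusted p = 0.181) from fewer libraries. Leaving out each library in turn gave 1 to 1824 genes, the 1824 without WT sham 6 (where 55 of the named genes passed that otherwise did not), and a log2 change of Pik3ca of 3.94 to 4.70. Genes with groups apart by 1.5-fold then numbered 1 to 651, with 651 without WT sham 6, 43 without caPI3Kalpha sham 5 and 6 without caPI3Kalpha sham 8. The count of miRNAs stayed at 0 under every alternative run, including DESeq2, with 1 to 12 at an unadjusted p under 0.05. No paired analysis was possible because the caPI3Kalpha and WT sham hearts share no animal number. The depth of the RPKM values is unknown, and low miRNA counts limit the scarce miRNAs.

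For the results below the sign turned; the cause was not tested. With the set term the log2 change was 0.09 for Pik3cb, 0.08 for Pik3c2a, 0.07 for Pik3c3, 0.27 for Pik3r3, -0.03 for Map3k15, -0.17 for Nkx6-2, -0.21 for Akt1, -0.13 for Akt2, 0.03 for Igf1r, 0.15 for Bnip3, -0.14 for Trim63, -0.03 for Nppa, -0.09 for Myh7, -0.04 for Col1a1, -0.40 for Cebpb, -0.12 for miR-208b and 0.00 for let-7a. In the first set alone it was 0.07 for Pik3cb, 0.05 for Pik3c2a, 0.04 for Pik3c3, 0.17 for Pik3r3, -0.28 for Nkx6-2, -0.05 for Pdzd9, -0.19 for Akt1, -0.16 for Akt2, 0.09 for Sesn1, 0.14 for Fbxo32, -0.14 for Trim63, -0.10 for Acta1, -0.05 for Nppa, -0.20 for Myh7, 0.03 for Kcnd2, -0.04 for Kcnj11, 0.01 for Dld, -0.13 for Vegfa, -0.03 for Cited4, -0.08 for Cebpb and -0.07 for Tcf21. Quantile normalization gave 0.05 for Myh6. The first name set alone gave -0.03 for miR-133a, and the second gave 0.21 for miR-1, -0.89 for miR-208b, -0.04 for miR-21, -0.01 for miR-30a and -0.17 for miR-1983.

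Leaving out 1 library at a time, the log2 change ranged from -0.63 to 0.99 for Pik3r1, -0.06 to 0.04 for Igf1r, -0.08 to 1.48 for Nppb, -0.21 to 0.11 for Myh6, -2.40 to 1.89 for Hba-a1, -0.31 to 1.33 for Thrsp, -0.18 to 1.27 for Myl1 and -0.12 to 1.04 for Igsf1. These ends came without caPI3Kalpha sham 8 or 5. It ranged from -0.31 to 0.06 for miR-1, -0.02 to 0.15 for miR-133a, -0.01 to 0.19 for miR-208a-3p, -0.28 to 0.50 for miR-208b, -0.23 to 0.12 for miR-499, -0.30 to 0.07 for miR-378 and -0.40 to 0.05 for let-7a.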

Other observations

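Some genes set caPI3Kalpha sham 8 apart from caPI3Kalpha sham 5 and beside the caPI3Kalpha TAC hearts. They were chosen after their values were seen. Between caPI3Kalpha sham 5 and 8, 155 of 7437 genes differed by 1.5-fold or more, and globin genes differed most. Nppa and Nppb placed caPI3Kalpha sham 8 farther from the caPI3Kalpha TAC hearts than caPI3Kalpha sham 5. Nppb had 224.1 and 75.7 RPKM in caPI3Kalpha sham 5 and 8, beside 236.5 and 404.4 RPKM in caPI3Kalpha TAC 11 and 211. Beyond all 7 WT hearts by 1.5-fold or more in caPI3Kalpha sham 8 and both caPI3Kalpha TAC hearts were 3 genes, Pik3ca, Igsf1 and Fam131a, all higher, and 0 genes lower. In 2 of these, Igsf1 and Fam131a, caPI3Kalpha sham 5 was within the WT range. Igsf1, an immunoglobulin superfamily gene, had 4.9 and 11.6 RPKM in caPI3Kalpha sham 5 and 8 and 14.3 and 18.9 RPKM in caPI3Kalpha TAC 11 and 211, against 4.5 to 6.3 RPKM in WT sham and 6.8 to 7.4 RPKM in WT TAC hearts. Fam131a had 5.1 and 11.3 RPKM in the sham and 8.3 and 8.6 RPKM in the TAC hearts with caPI3Kalpha, against 3.9 to 5.1 RPKM in WT sham and 3.5 to 4.0 RPKM in WT TAC hearts. Put the other way round, 1 gene was beyond all WT hearts in caPI3Kalpha sham 5 and both caPI3Kalpha TAC hearts, and that was Pik3ca.

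Smaller or partial differences of this kind were seen in other genes. Myl1, a fast skeletal light chain, had 27.7 and 76.7 RPKM in caPI3Kalpha sham 5 and 8, with 74.6 and 66.3 RPKM in the caPI3Kalpha TAC hearts, against 25.2 to 37.2 RPKM in WT sham and 38.5 to 54.0 RPKM in WT TAC hearts. For Myl1, caPI3Kalpha sham 8 and both caPI3Kalpha TAC hearts were above all 7 WT hearts by less than 1.5-fold. Thrsp, a regulator of fat synthesis, had 14.0 and 44.7 RPKM in caPI3Kalpha sham 5 and 8, with 36.4 and 21.4 RPKM in the caPI3Kalpha TAC hearts, against 12.7 to 24.9 RPKM in WT sham and 7.2 to 11.2 RPKM in WT TAC hearts, so that caPI3Kalpha TAC 211 lay within the WT sham range. Pik3r1 stood at 61.5 RPKM in caPI3Kalpha sham 8 and 19.7 RPKM in caPI3Kalpha sham 5, and its 32.1 and 28.6 RPKM in the caPI3Kalpha TAC hearts were within the WT sham range of 22.8 to 34.7 RPKM and above the WT TAC range of 19.2 to 20.1 RPKM. Pik3ca was also higher in caPI3Kalpha sham 8, at 195.0 RPKM, than in caPI3Kalpha sham 5, at 115.4 RPKM.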
